A study of Mus musculus with 2 samples.

Results

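The mouse genes for miR-99, miR-100 and miR-125 are 6 hairpin loci, Mir99a, Mir100, Mir99b, Mir125a, Mir125b-1 and Mir125b-2. They were taken by name from the 1973 miRNA genes counted in embryonic forebrain, and all 6 were found and had 10 or more counts in both libraries. The tissue came from embryos of the B6NCrl strain, a C57BL/6 line, at embryonic day 14.5, with no treatment, transgene or engineered allele named. Small RNA was sequenced in 2 libraries, numbered by the labels as biological replicates 1 and 2, so the study holds 1 group and no contrast between conditions. The labels call each library a single forebrain, collected on a different day for each, yet give the sex as pooled and the same donor for both. Differences between the libraries may therefore be partly technical.

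miRNAs are about 22 bases long and are cut from a hairpin by Drosha and then Dicer, which leaves a 5′ and a 3′ arm. One arm is usually kept in the Argonaute complex, where bases 2 to 8 from its 5′ end, the seed, pair with target mRNAs and lower their output. The miR-99 and miR-100 genes form one of the oldest miRNA families of animals and are known for repressing mTOR and IGF1R, parts of a growth signalling pathway. miR-125 is the mammalian counterpart of lin-4, which times larval development in Caenorhabditis elegans, and its targets include Lin28, an RNA-binding protein that blocks the maturation of let-7. In mammals the genes of these families sit beside let-7 genes in shared host transcripts, and miR-125b and let-7 are known to favour neuronal differentiation.

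The mature 5p sequences show how the genes are related and which of their reads can be told apart. Those of the 6 genes, from RefSeq on GRCm38.p6 and written 5′ to 3′ with the seed in capitals, are shown here because the seed sorts the genes into a pair of families.
miR-99a-5p: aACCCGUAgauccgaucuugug
miR-100-5p: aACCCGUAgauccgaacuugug
miR-99b-5p: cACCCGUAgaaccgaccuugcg
miR-125a-5p: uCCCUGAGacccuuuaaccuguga
miR-125b-5p, at both Mir125b-1 and Mir125b-2: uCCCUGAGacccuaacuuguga

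The seed ACCCGUA was found in 3 of the 1738 mature sequences in that table, namely those of Mir99a, Mir100 and Mir99b. Counted from the 5′ end, miR-99a-5p and miR-100-5p differ at 1 of 22 positions (U16A, with miR-99a first), outside the seed. miR-99b-5p differs from miR-99a-5p at 4 positions (A1C, U11A, U16C and U21C), also outside the seed. The seed CCCUGAG was found in 6 mature sequences, those of Mir125a, Mir125b-1, Mir125b-2, Mir351, Mir6367 and Mir6394. miR-125a-5p and miR-125b-5p share their first 13 bases and then part. The miR-10 genes, Hox-cluster relatives of miR-100, have a different seed, and the longest stretch shared by miR-100-5p and miR-10a-5p is 11 bases.

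Reads that matched several places in the genome were assigned to no gene, which bears on the members unequally. Mature miR-99a-5p, miR-100-5p, miR-99b-5p and miR-125a-5p were each found in 1 annotated hairpin, whereas miR-125b-5p was found whole in 2, Mir125b-1 and Mir125b-2. Around it, these hairpins share an unbroken stretch of 24 bases, the 22 bases of the mature arm and 2 bases before it, shown in capitals in the Mir125b-1 hairpin. For comparison, the Mir99a hairpin is shown with both arms in capitals.
Mir125b-1 hairpin: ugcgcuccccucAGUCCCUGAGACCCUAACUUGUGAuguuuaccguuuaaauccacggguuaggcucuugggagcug
Mir99a hairpin: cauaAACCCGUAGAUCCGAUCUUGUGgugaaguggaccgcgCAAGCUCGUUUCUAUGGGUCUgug

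A read of exactly miR-125b-5p therefore entered the counts of neither miR-125b gene. The 3′ arms of the pair differ and were each found in 1 hairpin, and they are shown, seeds in capitals, since they can place a read at 1 locus.
miR-125b-1-3p: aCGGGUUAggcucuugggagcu
miR-125b-2-3p: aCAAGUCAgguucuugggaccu
The counts of Mir125b-1 and Mir125b-2 are thus from reads that hold bases specific to the locus, such as those of the 3′ arm, and do not give the level of miR-125b-5p. The pool of reads matching several places held 8701185 reads in replicate 2 and 8057367 in replicate 1. That is 260 times the summed counts of the 2 miR-125b genes in replicate 2 and 246 times in replicate 1. How much of the pool is miR-125b was not tested. For Mir99a and Mir100 the longest stretch shared with another annotated hairpin is 16 bases, shared between these 2, for Mir125a it is 14 and for Mir99b 11.

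Levels were expressed as CPM, counts per 1000000 counts on the gene's own strand over all miRNA genes. The libraries held 7946585 such counts in replicate 2 and 7080317 in replicate 1. In replicate 2 each count equalled 0.126 CPM, and in replicate 1 it equalled 0.141 CPM. Errors are standard deviations over the 2 libraries, and counting intervals cover counting error only, since PCR copies are not independent molecules. A read of a miRNA spans the whole arm, so counts of different genes need no correction for hairpin length, and values per base are given where the order of genes is described. None of the 6 genes had a count on its opposite strand in either library.

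Tissue markers were checked first. Of the 10 forebrain and neuron markers, 9 were among the genes analysed and 8 had 10 or more counts in both libraries. Mir137 stood at 7614 ± 481 CPM, Mir153 at 1649 ± 174 CPM, Mir128-1 at 756 ± 246 CPM, Mir128-2 at 644 ± 161 CPM and Mir9-3 at 595 ± 55.5 CPM (SD, n = 2). The other 4 were low, with Mir9-2 at 5.00 ± 1.47 CPM, Mir124a-1 at 2.21 ± 0.463 CPM, Mir124a-2 at 1.78 ± 0.514 CPM and Mir124a-3 at 0.464 ± 0.0563 CPM. The hairpins of the Mir9, Mir124a and Mir128 genes analysed each share a stretch of 23 to 33 bases with another hairpin, so their counts too lack reads that match several places. The liver marker Mir122, at 10.3 ± 0.0829 CPM, lay above those 4. Of the 4 striated muscle markers analysed, Mir206 stood at 16.4 ± 3.97 CPM and the other 3 were at 0 counts in both libraries. Those 3, Mir1a-1, Mir133a-1 and Mir133a-2, share 28 to 31 bases with another hairpin, so a 0 does not show that their mature miRNAs were missing. The endothelial marker Mir126a stood at 22234 ± 185 CPM. In whole tissue, more cells of a type and more RNA per cell cannot be told apart.

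Together the 6 genes held 38.9% of all miRNA counts in replicate 2 and 35.0% in replicate 1, 36.9% ± 2.74 on average (SD, n = 2). Nearly all of it came from genes with the miR-99 seed. Mir99a, Mir100 and Mir99b held 35.9% ± 2.80 of the miRNA counts, against 1.02% ± 0.0592 for Mir125a, Mir125b-1 and Mir125b-2. Within the 6, the miR-125 genes made up 2.50% in replicate 2 and 3.02% in replicate 1. Because miR-125b-5p reads are left out, this is the share of counts and not of the molecules.

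**Figure D1:**
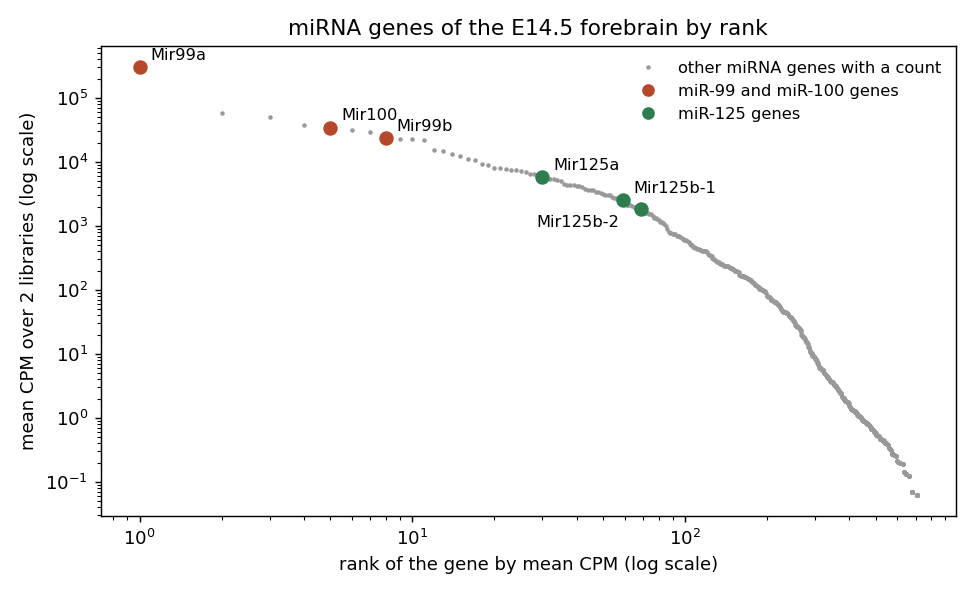
Mean CPM over the 2 libraries (log scale) of every miRNA gene with a count, plotted against its rank among reads that match 1 place (log scale), with the miR-99 and miR-100 genes in red and the miR-125 genes in green. Mir99a at rank 1 stands 5.14-fold above the gene at rank 2, and the 3 miR-125 genes lie at ranks 30, 59 and 69.

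Mir99a had 2526506 counts in replicate 2 and 2012407 in replicate 1. These were 317936 and 284226 CPM, and the mean was 301081 ± 23837 CPM (SD, n = 2). It had the most counts of any gene in both libraries, at 5.14 times the mean level of Mirlet7g, the next gene. Ranks across genes hold for reads that match 1 place, since the pool that matches several places was 1.09 times the size of all miRNA counts in replicate 2 and 1.14 times in replicate 1. Mir99a took up 12.2% of all reads sequenced in replicate 2 and 10.8% in replicate 1. Mir99a lies at chr16:77598936-77599000 on the plus strand of mm10, within an intron of Mir99ahg, a non-coding host gene. Within the 6 genes its share was 81.8% in replicate 2 and 81.3% in replicate 1, while that of Mir125b-1 was 0.588% in replicate 2 and 0.803% in replicate 1.

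Mir100, whose 5p arm differs from that of miR-99a at U16A alone, had 37285 CPM in replicate 2 and 31530 CPM in replicate 1. It ranked 4 of all genes in replicate 2 and 7 in replicate 1. The gene lies at chr9:41531425-41531504, plus strand, in introns of the non-coding genes 3110039I08Rik and Gm49317. Mir99a counts exceeded those of Mir100 by 8.53-fold in replicate 2 and 9.01-fold in replicate 1, a mean ratio of 8.77 ± 0.345.

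Mir99b stood at 23584 CPM in replicate 2 and 23438 CPM in replicate 1. It ranked 9 in both. As scaled here, its standard deviation was 0.440% of its mean, the lowest of the 6 genes. It lies at chr17:17830188-17830257, plus strand, in an intron of Spaca6, a gene for a sperm membrane protein needed for fertilisation. The ratio of Mir100 to Mir99b was 1.58 in replicate 2 and 1.35 in replicate 1, and the libraries of the 2 genes did not overlap.

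Mir125a, the miR-125 gene with a 5p arm of its own, had 5520 CPM in replicate 2 and 5943 CPM in replicate 1, with ranks of 30 and 31. It lies at chr17:17830812-17830879, plus strand, and overlaps an exon of Spaca6. Its mean was 5732 ± 299 CPM (SD, n = 2), which placed it 4.10-fold below Mir99b.

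Mir125b-1 had 2285 CPM in replicate 2 and 2808 CPM in replicate 1, from 18160 and 19884 counts. It lies at chr9:41581926-41582002, plus strand, in introns of 3110039I08Rik and Gm49317 and in an exon of Gm28119, a small sense intronic gene model. As scaled here, its standard deviation was 14.5% of its mean, the highest of the 6.

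Mir125b-2 had 1927 CPM in replicate 2 and 1818 CPM in replicate 1, from 15313 and 12874 counts. It lies at chr16:77646273-77646343, plus strand, in an intron of Mir99ahg. Of the locus-specific counts of the pair, Mir125b-1 held 54.3% in replicate 2 and 60.7% in replicate 1.

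**Figure D2:**
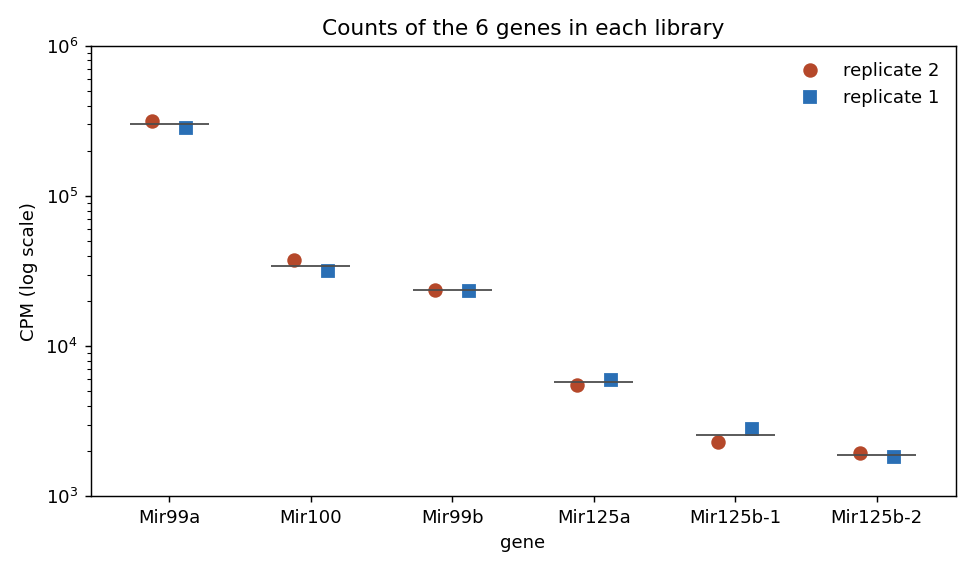
CPM (log scale) of each of the 6 genes in replicate 2 (circles) and replicate 1 (squares), with the mean as a line. The genes span from 1818 CPM for Mir125b-2 to 317936 CPM for Mir99a, and no 2 genes overlap between libraries.

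The order by counts of reads that match 1 place was thus Mir99a, Mir100, Mir99b, Mir125a, Mir125b-1 and Mir125b-2. The counts of Mir125b-1 and Mir125b-2 lack miR-125b-5p reads, so their place does not give the level of that miRNA. In each of the 5 pairs of neighbours, both libraries of the higher gene lay above both libraries of the lower gene. The narrowest gap was between Mir125b-1 and Mir125b-2, at 1.19-fold in replicate 2 and 1.54-fold in replicate 1. Per base of hairpin the order was the same, from 4632 CPM per base for Mir99a to 33.1 for Mir125b-1 and 26.4 for Mir125b-2.

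All 6 genes belonged to the 85 genes at a mean of 1000 CPM or more, while the median of the 399 genes with 10 or more counts in both libraries was 81.0 CPM. The gene nearest to each member was found by the distance between log2(CPM + 1) values over the 2 libraries, which uses level far more than any change. Mir99a had no close neighbour, with Mirlet7g at a distance of 3.34 log2 units. Mir335 was nearest to Mir100 (0.40), endothelial Mir126a to Mir99b (0.11) and Mir708 to Mir125a (0.05). Mir423 was nearest to Mir125b-1 (0.13) and Mir361 to Mir125b-2 (0.04).

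The other genes with the miR-125 seed had fewer counts than the 3 miR-125 genes. Mir351, on the X chromosome, had 691 CPM in replicate 2 and 786 CPM in replicate 1, a mean of 738 ± 67.0 CPM (SD, n = 2). Its 5p arm shares 8 bases with miR-125b-5p before the sequences part.
miR-351-5p: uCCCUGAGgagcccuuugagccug
Mir351 made up 6.63% of the summed counts of Mir351 and the 3 miR-125 genes in replicate 2 and 6.92% in replicate 1. Mir6367 and Mir6394 had no count in either library, which for reads that match 1 place allows 0.378 CPM at most in replicate 2 and 0.424 CPM at most in replicate 1 (3 counts). Of the related miR-10 genes, Mir10a had 369 CPM in replicate 2 and 271 CPM in replicate 1. Mir10b had 254 CPM in replicate 2, against 217 CPM in replicate 1.

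The 6 genes form 3 pairs on the chromosomes, each a miR-99 or miR-100 gene upstream of a miR-125 gene with a let-7 gene between them. On chromosome 16, 656 bases separate Mir99a from Mirlet7c-1 and 47272 bases separate it from Mir125b-2. On chromosome 9, 5211 bases separate Mir100 from Mirlet7a-2 and 50421 bases separate it from Mir125b-1. On chromosome 17 the cluster is compact, with gaps of 94 bases from Mir99b to Mirlet7e and 554 bases to Mir125a. The chromosome 16 pair held 82.1% ± 0.384 of the counts of the 6 genes and the chromosome 17 pair 7.95% ± 0.643 (SD, n = 2). The chromosome 9 pair held 10.2% in replicate 2 and 9.82% in replicate 1.

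Within every cluster the upstream miR-99 or miR-100 gene had the most counts. Mirlet7c-1 stood at 353 CPM in replicate 2 and 326 CPM in replicate 1. Mirlet7a-2 stood at 167 CPM in replicate 2, against 145 CPM in replicate 1. Each of these let-7 hairpins shares a stretch of 23 bases with another let-7 hairpin, so they too lose reads that match several places. Mirlet7e itself was not analysed here, but the gene model Gm25927, annotated on the minus strand over the same bases, had opposite-strand counts of 3289 CPM in replicate 2 and 3394 CPM in replicate 1. On the genome, those reads run in the direction of Mir99b and Mir125a. The longest stretch that Mirlet7e shares with a hairpin elsewhere is 17 bases.

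**Figure D3:**
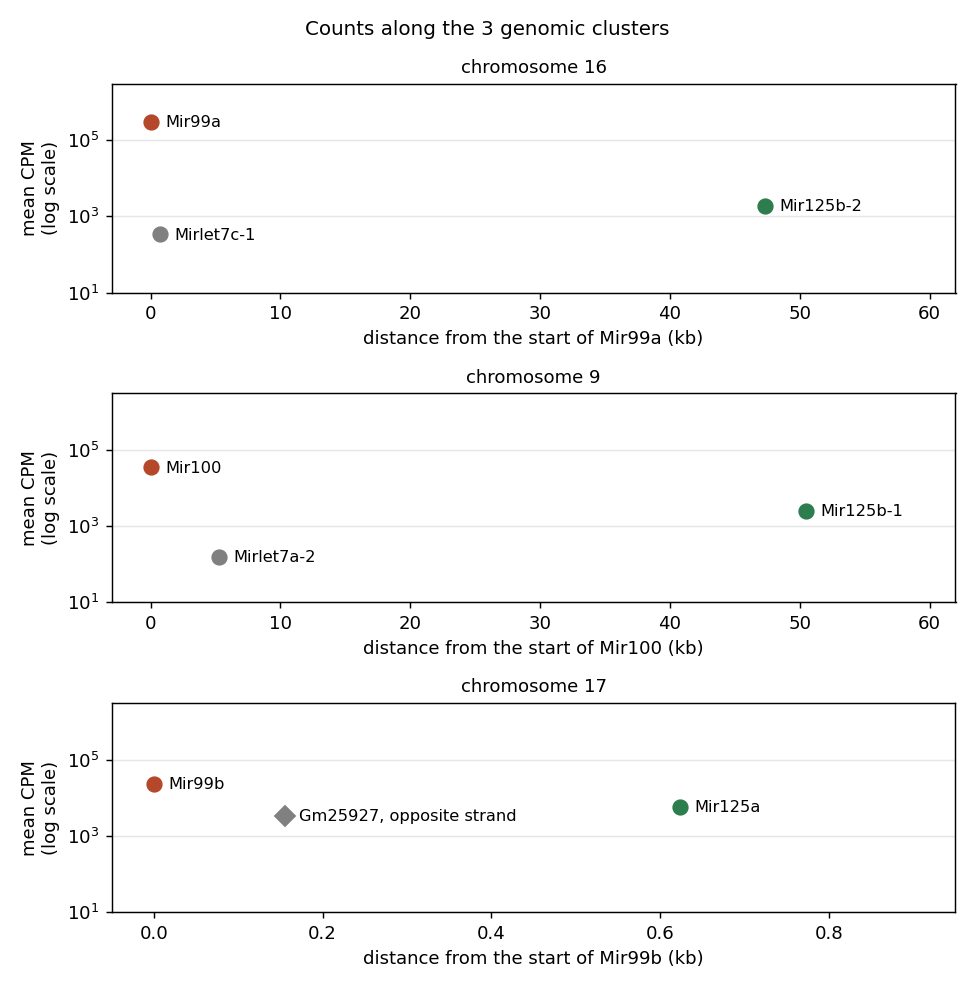
Mean CPM over the 2 libraries (log scale) against the distance in kb from the start of the miR-99 or miR-100 gene, for the clusters on chromosomes 16, 9 and 17 (the distance axis of chromosome 17 is expanded). Grey points are let-7 positions, with a diamond for the opposite-strand counts of Gm25927, and the miR-99 or miR-100 gene is the highest point in each cluster.

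The ratio of the upstream gene to its miR-125 gene differed between the clusters by far more than between the libraries. Mir99a over Mir125b-2 was 165 in replicate 2 and 156 in replicate 1. Mir100 over Mir125b-1 was 16.3 in replicate 2 and 11.2 in replicate 1. Mir99b over Mir125a, the only pair in which both mature 5p arms are specific to their gene, was 4.27 in replicate 2 and 3.94 in replicate 1. The 2 larger ratios have a miR-125b gene below the line, whose count lacks miR-125b-5p reads, so they are ratios of counts and not of mature miRNAs.

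**Figure D4:**
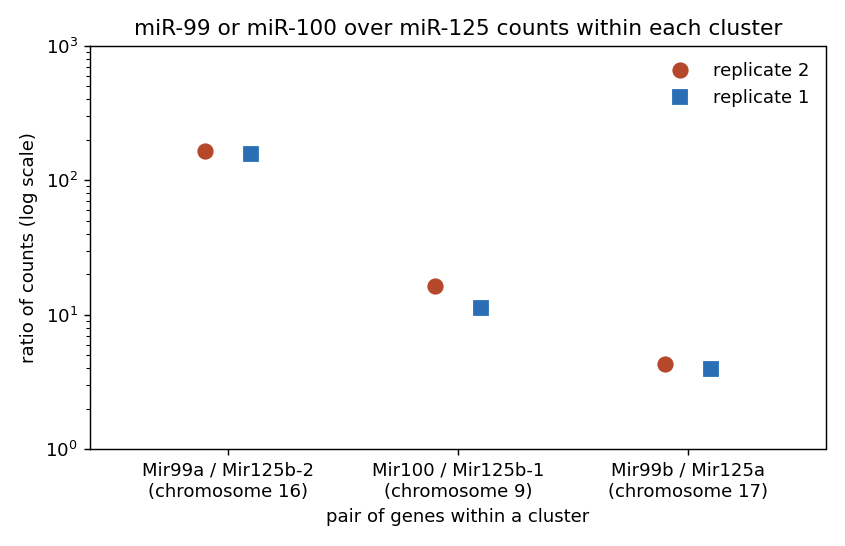
Ratio of miR-99 or miR-100 counts to miR-125 counts (log scale) within each cluster in replicate 2 (circles) and replicate 1 (squares). The ratio is 165 and 156 on chromosome 16, 16.3 and 11.2 on chromosome 9 and 4.27 and 3.94 on chromosome 17 (replicates 2 and 1), and is higher in replicate 2 in all 3.

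Between the libraries these within-cluster ratios can be compared free of any scaling. All 3 were higher in replicate 2, by 1.06-fold on chromosome 16, 1.45-fold on chromosome 9 and 1.08-fold on chromosome 17. Each passed a two-sided Fisher's exact test adjusted over 7 pairs by Benjamini-Hochberg (adjusted p = 1.20e-05, 1.69e-269 and 2.76e-25 in that order). For the chromosome 9 cluster the let-7 gene gives another point of comparison. Mir100 over Mirlet7a-2 was 223 in replicate 2 and 218 in replicate 1 (adjusted p = 0.559 by Fisher's exact test). Mir125b-1 over Mirlet7a-2 was 13.7 in replicate 2 and 19.4 in replicate 1 (adjusted p = 6.64e-16 by Fisher's exact test). On chromosome 16 neither pair with Mirlet7c-1 passed (Fisher's exact test, adjusted p = 0.332 for Mir99a and 0.559 for Mir125b-2). Mir99a over Mirlet7c-1 was 901 in replicate 2 and 872 in replicate 1, and Mir125b-2 over Mirlet7c-1 was 5.46 and 5.58. Counts were only 2804 and 2309 for Mirlet7c-1 and 1327 and 1025 for Mirlet7a-2 (replicates 2 and 1). A let-7 pair that did not pass may therefore still have shifted slightly. These tests set 1 library against another and know counting error only, so they do not measure variation between embryos.

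In CPM, 5 of the 6 genes differed between the libraries past an adjusted p of 0.05 in a two-sided Fisher's exact test adjusted over 445 genes, 3 higher and 2 lower in replicate 2. Of all genes tested, 47.9% were called, 16.6% higher and 31.2% lower in replicate 2. Among the 85 genes at 1000 CPM or more, 94.1% were called, so a call is common among genes this abundant. None of the 6 reached 1.5-fold, and neither did any other of these 85 genes, where 1.48-fold was the greatest distance. Of all genes tested, most of them less abundant, 16.9% reached it and 7.64% both reached it and were called. The median distance between the libraries was 1.10-fold for the 6 genes, 1.14-fold for the 85 and 1.19-fold for all genes tested.

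Mir100 was 1.18-fold and Mir99a 1.12-fold higher in replicate 2, and for both the Fisher p-value was too small for the software to hold. Mir125b-2 had a ratio of 1.06 (Fisher's exact test, adjusted p = 3.79e-06). Mir99b was 1.01-fold apart and did not pass (Fisher's exact test, adjusted p = 0.117). Mir125b-1 was lower in that library, with a log2 ratio of -0.30 (Fisher's exact test, adjusted p = 6.39e-89). The log2 ratio of Mir125a was -0.11 (Fisher's exact test, adjusted p = 1.54e-26), and its sign turned with median-of-ratios size factors (0.0038, adjusted p = 0.778).

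**Figure D5:**
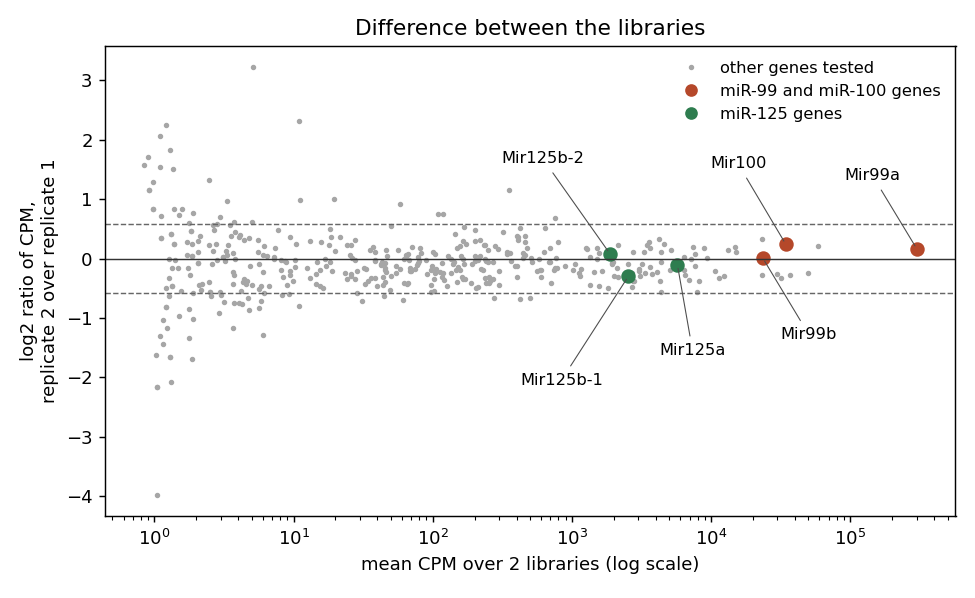
Log2 ratio of CPM, replicate 2 over replicate 1, against mean CPM (log scale) for the 444 genes tested that had a count in both libraries, with dashed lines at 1.5-fold. The 6 genes, in red and green, lie between -0.30 and 0.24 and all fall inside the dashed lines.

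Scaling moved these ratios together. TMM raised every log2 ratio by 0.08 and median-of-ratios factors by 0.11. With either of them Mir99b passed as well (1.06-fold and 1.09-fold higher in replicate 2). Of the 6 genes, Mir100 was then the furthest apart (log2 ratio 0.32 and 0.35) and Mir125a the least (-0.027 and 0.0038). The split of all calls into higher and lower in replicate 2 was 74 and 139 genes as scaled here, 93 and 101 with TMM, and 102 and 92 with median-of-ratios factors. Markers of some other cells differed between the libraries too, while those of others hardly did. The log2 ratio of summed CPM, replicate 2 over replicate 1, was 0.42 for the 2 erythroid markers, both higher in replicate 2. That sum rests mostly on Mir451a (0.39). The ratio was 0.35 for the 5 Hox-cluster markers, with 3 higher and 2 lower. The 2 lower, Mir196a-2 and Mir196a-1, had only 7 and 1 counts in replicate 2 and 11 and 2 in replicate 1. For the 5 smooth muscle and stroma markers it was 0.16, with 2 higher and 3 lower, and rests mostly on Mir143 (0.17). Of the 3 lower, Mir199a-1 had 0 counts in replicate 2 and 3 in replicate 1, and Mir214 had a log2 ratio of -0.0055. The log2 ratio was 0.02 for Mir126a and, of summed CPM, -0.05 for the 9 neural markers. The neural sum rests mostly on Mir137 (-0.13), and its members differed in direction, with 5 higher and 4 lower in replicate 2. Among them the log2 ratio was 0.68 for Mir128-1, 0.51 for Mir128-2, 0.61 for Mir9-2, 0.60 for Mir124a-2 and 0.25 for Mir124a-3. It was -0.43 for Mir124a-1, -0.22 for Mir153 and -0.19 for Mir9-3. Counts were low for Mir9-2 (48 in replicate 2 and 28 in replicate 1), Mir124a-2 (17 and 10), Mir124a-1 (15 and 18) and Mir124a-3 (4 and 3). The log2 ratio was -0.50 for Mir206 and -0.02 for Mir122. Their part in the differences of the 6 genes was not tested, and since the labels give each library its own collection day, day and library cannot be told apart.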

How the data were processed

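Small RNA libraries of E14.5 mouse forebrain were analysed from the authors' deposited tables of raw read counts, 1 per library. Per the deposited README files, counting used 1 alignment file per library, mm10 and GENCODE M4. No aligner, counter or setting is named in the sources used here. Each table holds counts on either strand, on the gene's strand (used here) and on the opposite strand, and rows for reads assigned to no gene, which stayed out of library sizes. Multi-mapping reads were 42.7% ± 0.822 and reads without a feature 2.21% ± 0.189 of all reads (SD, n = 2).

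Names and positions came from GENCODE M21 on the same assembly (1894 of 1973 IDs matched), mature and hairpin sequences from RefSeq (GRCm38.p6). All 6 genes matched a mature entry. Shared sequence was searched in 2202 annotated hairpins, not the whole genome. Fisher's exact test (scipy 1.17.1) was run on genes reaching 10 counts in at least 1 library, with Benjamini-Hochberg adjustment and a threshold of 0.05. It was tested on data simulated with counting error only. Scaling alternatives used edgeR 4.0.16 (TMM) and DESeq2 1.42.0 (size factors), with an exact binomial test. Named genes are the 6 members, miRNA genes within 60 kb, genes sharing a 5p seed, miR-10 genes, the nearest gene in level and fixed tissue markers; the genes and lists were chosen with earlier results of these data known.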

Additional observations from a re-analysis of the deposited data

Results flagged for a closer look

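Counts on the opposite strand of Gm25927, a gene model between Mir99b and Mir125a, are outside the main measurement, which used each gene's own strand. They numbered 26135 in replicate 2 and 24030 in replicate 1, far above the 3 counts that a count of 0 allows, and the gene's own strand had 0 in both. Counted on either strand, Mir99b over Gm25927 was 7.17 in replicate 2 and 6.91 in replicate 1 (Fisher's exact test over 9 pairs, adjusted p = 0.000148). Mir125a over Gm25927 went the other way, at 1.68 in replicate 2 and 1.75 in replicate 1 (Fisher's exact test over the same pairs, adjusted p = 0.000254).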

How the results depend on the processing

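The order of the 6 genes by counts, with all 5 neighbouring pairs apart, was the same per base of hairpin. Counting either strand could not change that order, since none of the 6 had an opposite-strand count. Neither could leaving out a replicate, since no neighbours overlapped between the libraries. No setting restored the miR-125b-5p reads missing from Mir125b-1 and Mir125b-2. Over all reads of the library, the share was 14.1% ± 1.16 for the 6 genes and 11.5% ± 1.01 for Mir99a (SD, n = 2), since unassigned reads then enter the total. Per base of hairpin, Mir99a held 83.6% ± 0.420 of the 6 genes. Without each replicate in turn, the shares ranged from 35.0% to 38.9% for the 6 genes and from 28.4% to 31.8% for Mir99a. They ranged from 81.3% to 81.8% for Mir99a within the 6 and from 2.50% to 3.02% for the miR-125 genes. Of the 6 genes, 5 or 6 differed between the libraries under every scaling and filter, but 0 did with a 1.5-fold minimum. Of all genes tested, 43.6% were called with TMM or median-of-ratios factors, 43.8% over totals without Mir99a and 46.7% over all reads. With counts on either strand the share was 47.8%, and with the 1.5-fold minimum 7.64%. Without a filter on low counts, 178 of 1973 genes tested (9.02%) were called. With median-of-ratios factors the log2 ratio of Mir125a was 0.0038, and the cause was not tested. The 3 within-cluster ratios could not change with counts on either strand, since none of the 6 genes had an opposite-strand count. Only the number of pairs in the adjustment changed, and all 3 still passed, so this was no separate check of them. No paired analysis was possible because the libraries form 1 group.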
